A study of Mus musculus with 6 samples.

Results

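The metallothionein genes Mt1, Mt2 and Mt3 were taken by symbol from a table of hippocampal transcript levels, which makes 3 genes of the 32201 listed. Metallothioneins are small cysteine-rich proteins that bind zinc and copper through their thiols. Mt1 and Mt2 are present in most tissues and in brain are found mainly in astrocytes. They are induced by zinc through the metal-responsive transcription factor MTF1, by glucocorticoids and by cytokine signalling through STAT3. Mt3 is largely a brain form, found in astrocytes and in zinc-rich neurons, and in mice is much less inducible by metals and glucocorticoids.

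The libraries were made from hippocampus of male C57BL/6N mice, an inbred strain, aged 8 weeks. One group received baicalin, a flavone glucuronide of Scutellaria root, at 20 mg/kg (3 libraries), and the other received saline (3 libraries). Both groups had been through chronic unpredictable mild stress, a rotating schedule of mild stressors that serves as a rodent model of depression, so the contrast is between stressed mice with and without the compound. An unstressed group is named in the labels and is not analysed here. Whether libraries came from different animals is not stated, and p-values therefore describe only how these libraries vary, which may be technical. Library totals were 61303274 to 64983755 counts with baicalin and 65989141 to 67957752 with saline, and the mitochondrial genome's share was 7.71 to 8.69% in baicalin libraries, against 7.18 to 7.82% in saline libraries. Markers of astrocytes, oligodendrocytes and the neurons of hippocampal fields were detected in these libraries. Saline library 2 stood apart in markers of hippocampal fields, and saline library 3 in a meningeal marker list; results that rest on them are given without them.

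The members lie next to each other on the forward strand of chromosome 8 (mm10), in the order Mt3, Mt2, Mt1. In the deposited table Mt3 (ENSMUSG00000031760) spans 94152607 to 94154146, Mt2 (ENSMUSG00000031762) spans 94172664 to 94173568 and Mt1 (ENSMUSG00000031765) spans 94179082 to 94180327. Each has an annotated transcript of 3 exons in GENCODE mouse release 21, and the longest such transcript of each gene was used (Mt1-201, Mt2-201 and Mt3-201). The coding sequences are of 186 bases for Mt1 and Mt2 and 207 bases for Mt3. Their coding sequences are shown because the cysteine codons, in capitals, are the feature that defines the family.

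Mt1: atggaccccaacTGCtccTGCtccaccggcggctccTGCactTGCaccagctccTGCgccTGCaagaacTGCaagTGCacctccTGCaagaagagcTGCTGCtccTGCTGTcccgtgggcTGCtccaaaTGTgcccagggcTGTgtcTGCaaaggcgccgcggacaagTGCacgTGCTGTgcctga
Mt2: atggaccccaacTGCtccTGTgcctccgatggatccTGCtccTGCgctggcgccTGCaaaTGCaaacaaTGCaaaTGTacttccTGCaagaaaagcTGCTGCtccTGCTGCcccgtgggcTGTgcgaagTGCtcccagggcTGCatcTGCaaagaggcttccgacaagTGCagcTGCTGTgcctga
Mt3: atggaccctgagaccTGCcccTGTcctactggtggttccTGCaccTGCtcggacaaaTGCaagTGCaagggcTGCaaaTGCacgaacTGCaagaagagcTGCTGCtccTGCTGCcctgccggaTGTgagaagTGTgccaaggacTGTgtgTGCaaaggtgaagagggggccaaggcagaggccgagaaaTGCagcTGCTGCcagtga

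Each coding sequence holds 20 cysteine codons, 16 of them TGC and 4 TGT. These make up 32.8% of the 61 codons of Mt1 and of Mt2, and 29.4% of the 68 codons of Mt3. Mt1 and Mt2 were identical at 148 of 186 aligned bases (79.6%). Mt3 matched Mt1 at 137 of 207 aligned positions (66.2%) and Mt2 at 140 of 207 (67.6%), with gaps counted as mismatches. The handling of reads that fit more than 1 gene was not given in the sources used here.

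The 250 bases before each RefSeq start (GRCm38.p6, forward strand) are shown because MTF1 acts through metal response elements near the start of Mt1 and Mt2. Capitals mark matches to the core TGCACNC or TGCGCNC on either strand. The windows are chr8:94178839-94179088 for Mt1, chr8:94172368-94172617 for Mt2 and chr8:94152357-94152606 for Mt3.

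Mt1: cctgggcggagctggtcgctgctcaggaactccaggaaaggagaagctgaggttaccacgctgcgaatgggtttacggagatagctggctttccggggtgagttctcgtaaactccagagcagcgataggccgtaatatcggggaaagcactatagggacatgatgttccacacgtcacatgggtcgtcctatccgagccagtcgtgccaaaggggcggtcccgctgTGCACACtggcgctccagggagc
Mt2: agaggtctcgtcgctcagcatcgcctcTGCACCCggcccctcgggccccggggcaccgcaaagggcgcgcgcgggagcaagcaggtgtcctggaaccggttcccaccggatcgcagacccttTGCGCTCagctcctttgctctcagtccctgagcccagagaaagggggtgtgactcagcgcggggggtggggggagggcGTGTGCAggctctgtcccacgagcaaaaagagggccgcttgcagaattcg
Mt3: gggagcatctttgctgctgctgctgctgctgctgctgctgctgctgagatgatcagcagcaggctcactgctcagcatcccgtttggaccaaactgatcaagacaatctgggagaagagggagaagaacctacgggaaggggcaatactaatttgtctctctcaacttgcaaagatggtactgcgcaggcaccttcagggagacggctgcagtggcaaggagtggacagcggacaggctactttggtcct

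The core occurred once in the Mt1 window, 3 times in the Mt2 window and not at all in the Mt3 window. At least 1 match was present in 21.4% of all 32851 such windows, and at least 3 in 1.26%. The annotated starts matter here, because cores also lay just inside the annotated transcripts: the first 150 bases held 4 in the 3-exon transcript of Mt1, 3 in that of Mt2 and 3 in that of Mt3. Among 58695 protein-coding transcripts, 15.2% had at least 1 core in their first 150 bases, 0.388% had at least 3 and 0.0545% at least 4. For Mt1 these began at transcript bases 10, 28, 92 and 106. The core hexamer bound by the glucocorticoid receptor, TGTTCT, was found on neither strand of the 3 promoter windows and was present in 16.1% of all windows. Sequence farther upstream was not searched for it. A match of letters is a description and not a binding site.

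All members were abundant. By mean FPKM over the 6 libraries (the authors' values scaled to gene length and library size), Mt3 ranked 100th of 13153 genes tested, Mt1 ranked 154th and Mt2 ranked 159th. The genes tested were those with a mean of at least 1 FPKM. Mt3 had 239.4, 260.8 and 284.4 FPKM in the baicalin libraries and 232.7, 216.4 and 205.8 FPKM in the saline libraries. Mt1 had 187.4, 221.7 and 202.4 FPKM with baicalin and 159.0, 162.7 and 151.4 FPKM with saline. Mt2 averaged 210.0 ± 31.8 FPKM with baicalin against 147.6 ± 2.75 FPKM with saline (SD, n = 3 each).

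Mt3 was the highest of the 3 members per length, and whether Mt1 and Mt2 stood close together rests on which length is used. The deposited FPKM divide by all annotated exons merged, which come to 1246 bp for Mt1 because a 1085 bp isoform with no intron is annotated, against 588 bp for Mt2 and 1066 bp for Mt3. The 3-exon transcripts used are 549, 511 and 536 bp. Shorter 3-exon transcripts are annotated for Mt2 (388 bp) and Mt3 (440 bp), and levels were not computed with those lengths. CPM are counts scaled to library size after edgeR's TMM correction. On the CPM per kilobase scale with merged exons, Mt1 averaged 235.7 ± 18.7 with baicalin, against 181.5 ± 7.12 with saline (SD, n = 3 each). Mt2 averaged 243.0 ± 38.7 with baicalin and 169.8 ± 3.31 with saline on the same scale. The ratio of Mt1 to Mt2 on it lay between 0.83 and 1.10, with Mt1 higher in 5 of 6 libraries, so these neighbours in the order did not differ beyond their spread.

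With the 3-exon lengths, chosen after the data were seen, Mt1 averaged 534.8 ± 42.5 CPM per kilobase with baicalin and 411.8 ± 16.2 with saline. Mt2 then averaged 279.6 ± 44.5 with baicalin and 195.4 ± 3.81 with saline, and the level of Mt1 was 1.64 to 2.17 times that of Mt2 in the 6 libraries. Mt3 averaged 601.6 ± 56.2 with baicalin and 499.5 ± 30.8 with saline, 1.03 to 1.28 times the level of Mt1 within a library. Mt3 was above Mt1 and Mt2 in all 6 libraries with either length. Comparisons between groups within a gene do not depend on the length.

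**Figure D1:**
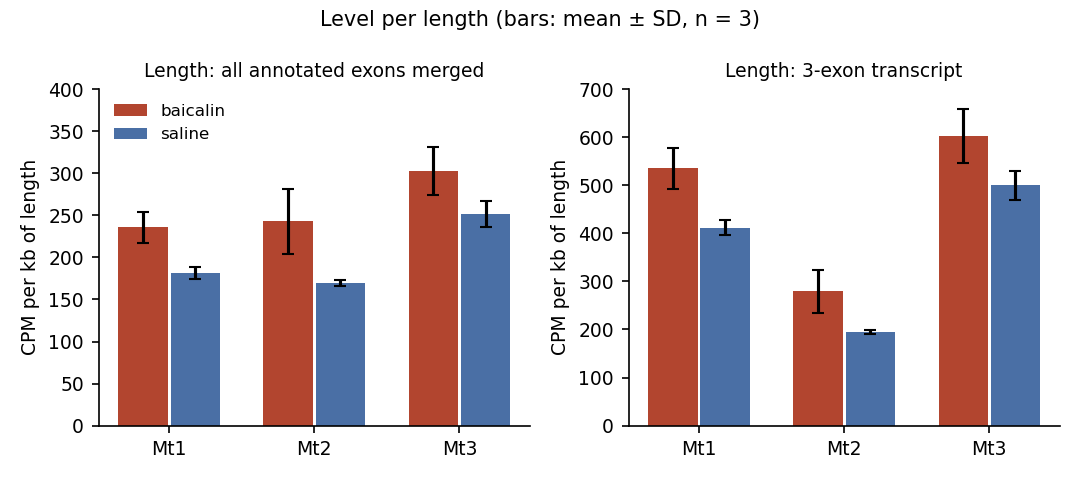
Level of each metallothionein in CPM per kilobase, with the merged exon length on the left and the 3-exon transcript length on the right (bars, mean; error bars, SD; n = 3 libraries of each group; the vertical scales differ). Mt1 and Mt2 are level with merged exons, and Mt1 is 1.64 to 2.17 times Mt2 with these 3-exon lengths (the longest such transcript of each gene).

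All 3 metallothioneins had higher levels in the baicalin group than in the saline group, and the groups did not overlap for any of them, but none passed the adjusted threshold of 0.05 in edgeR. Mt2 stood 1.43-fold higher and Mt1 1.30-fold, and Mt3 differed least. Without saline library 2 the log2 changes were 0.40 for Mt1, 0.52 for Mt2 and 0.27 for Mt3, and without saline library 3 they were 0.35, 0.53 and 0.23. In bulk tissue more cells of a type and more RNA per cell cannot be told apart.

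Mt1 had 269.7, 316.3 and 294.9 CPM in the baicalin libraries and 227.5, 234.1 and 216.6 CPM in the saline libraries. Each baicalin library was above each saline library, with 35.5 CPM between the nearest of them. Its log2 change was 0.38 ± 0.07 (SE, 95% interval 0.22 to 0.54), with unadjusted p = 0.000894 and adjusted p = 0.222 by edgeR's quasi-likelihood test.

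Mt2 had 121.7, 140.0 and 166.9 CPM in the baicalin libraries and 97.6, 100.6 and 101.3 CPM in the saline libraries. The saline libraries lay close together (SD 1.94 CPM) and the baicalin libraries were spread (SD 22.8 CPM), with library 3 the highest. The log2 change of Mt2 was 0.52 ± 0.11 (SE, 95% interval 0.26 to 0.78), with unadjusted p = 0.00249 and adjusted p = 0.310 in edgeR.

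Mt3 had 294.7, 318.2 and 354.4 CPM in the baicalin libraries and 284.8, 266.5 and 251.9 CPM in the saline libraries. Its groups came closest, with 9.88 CPM between baicalin library 1 and saline library 1. The log2 change of Mt3 was 0.27 ± 0.08 (SE, 95% interval 0.08 to 0.46), with unadjusted p = 0.0126 and adjusted p = 0.353 in edgeR.

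**Figure D2:**
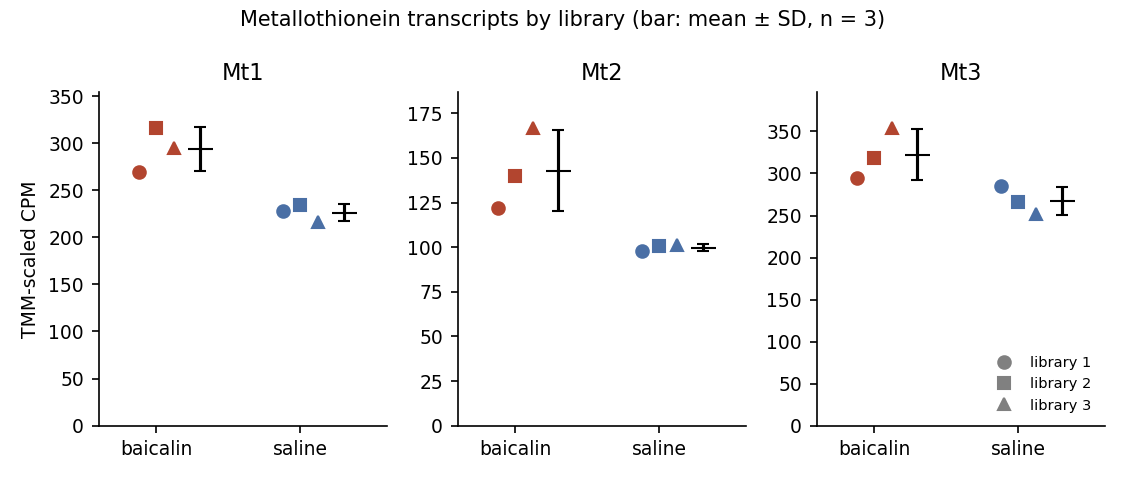
TMM-scaled CPM of Mt1, Mt2 and Mt3 in each library (symbols, libraries 1 to 3; black bar, mean ± SD; n = 3 each). For each gene the baicalin libraries lie above the saline libraries, and for Mt3 the nearest are 294.7 CPM (baicalin) and 284.8 CPM (saline).

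Together the members took 686.0, 774.5 and 816.3 CPM in the baicalin libraries and 610.0, 601.2 and 569.7 CPM in the saline libraries. All summed values with baicalin were above those with saline. Each gene varied more between libraries than counting alone gives, least so for Mt2 with saline. The coefficient of variation in CPM was 7.94% for Mt1, 15.9% for Mt2 and 9.34% for Mt3 with baicalin, and 3.93%, 1.95% and 6.17% with saline. Counting alone would give 0.704 to 1.06% at the mean counts of the baicalin group and 0.751 to 1.23% at those of the saline group.

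Against all genes, 0 of the 3 members passed the adjusted threshold in edgeR, where 0.0456% of genes passed it in either direction (2 higher, 4 lower) and 0.0152% were called higher. At an unadjusted p under 0.05, all 3 were higher, where 6.34% of genes were higher and 5.46% lower. Groups without overlap and with baicalin higher were seen for 9.93% of genes. In the order of p-values Mt1 was 53rd, Mt2 103rd and Mt3 464th of 13153, and 4.46%, 2.40% and 8.20% of genes had a higher log2 change. The members were chosen with earlier results of these data known, so these ranks and shares are descriptions and no independent evidence. DESeq2, run on the same counts, called Mt1 (adjusted p = 0.000491) and Mt2 (adjusted p = 0.00115) and not Mt3 (adjusted p = 0.0950), in a test that called 1.06% of genes higher. With TPM scaling, 17.7% of genes at an unadjusted p under 0.05 were higher with baicalin, against 53.7% with TMM. On the TPM scale the groups of Mt3 nearly met, with 752.6 in the nearest baicalin library and 748.5 in the nearest saline library. The groups of Mt1 and Mt2 did not overlap on it either.

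**Figure D3:**
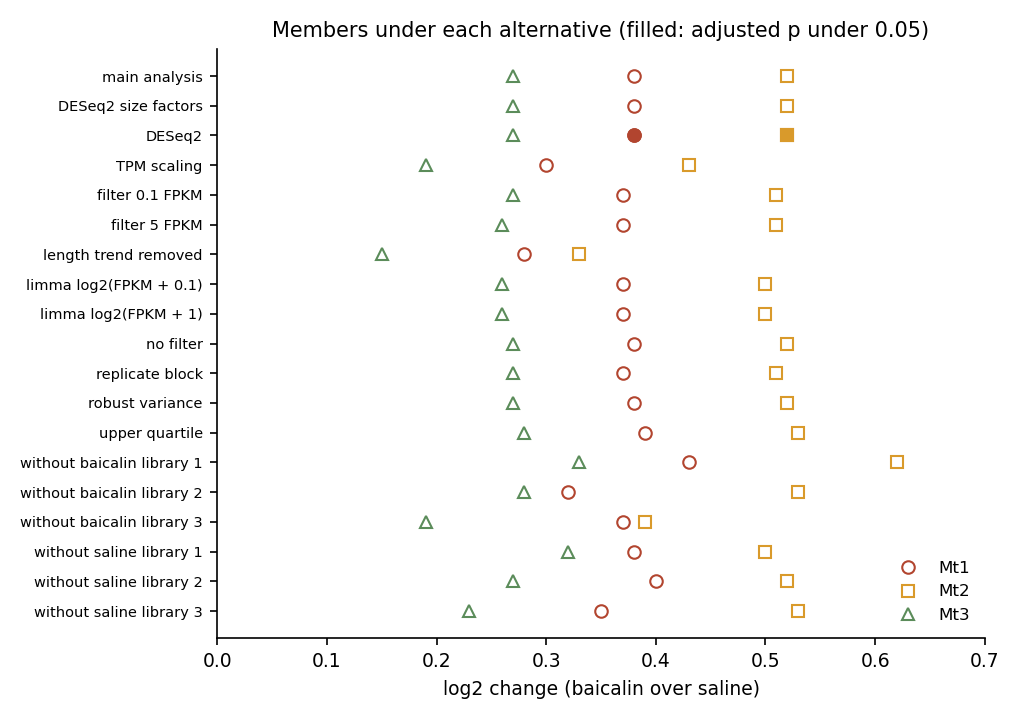
log2 change of Mt1, Mt2 and Mt3, baicalin over saline, in the main analysis and under 18 alternatives (filled symbols, adjusted p under 0.05). Values run from 0.28 to 0.43 for Mt1, 0.33 to 0.62 for Mt2 and 0.15 to 0.33 for Mt3, and the filled symbols are those of Mt1 and Mt2 with DESeq2.

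Gene length moved with these differences. With the genes tested split by length into 5 bins, the members fall in the shortest (56 to 1916 bp), in which the median log2 change was 0.11, against -0.07 in the longest (7287 to 41155 bp). In that shortest bin 14.7% of genes were higher at an unadjusted p under 0.05, and 20.0% had groups without overlap and baicalin higher. With each library's trend with length removed, the log2 changes were 0.28 for Mt1, 0.33 for Mt2 and 0.15 for Mt3. On that scale the nearest libraries had 294.5 CPM (baicalin) and 290.2 CPM (saline) for Mt3, and the groups of all 3 members still did not overlap. The 20.0% is for CPM before that removal, and the share of genes without overlap after it is not given here. The part of length in the members' differences was otherwise not tested.

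**Figure D4:**
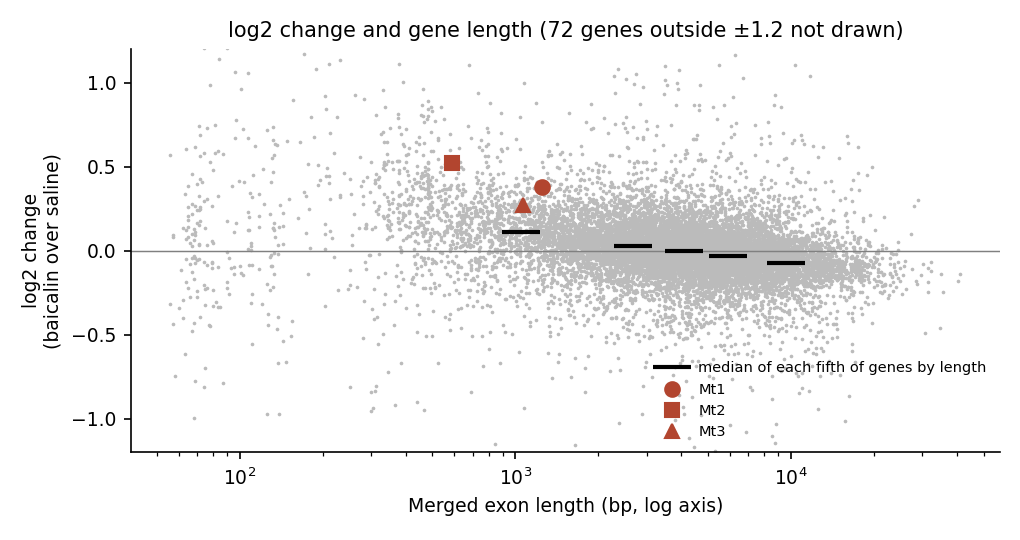
log2 change, baicalin over saline, against merged exon length on a log axis for the 13153 genes tested (grey points; 72 genes beyond the vertical range are not drawn), with the median of each of 5 length bins (black bars, at the median length). The bars fall with length between 0.11 and -0.07, and Mt1, Mt2 and Mt3 lie above the bar of their own bin.

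The ratio of Mt1 to Mt2 was lowest in a baicalin library. The count of Mt1 was 2.22, 2.26 and 1.77 times that of Mt2 in the baicalin libraries and 2.33, 2.33 and 2.14 times in the saline libraries. Baicalin library 3 was the lowest, and saline library 3 the next. The mean log2 ratio was 1.05 ± 0.20 with baicalin, against 1.18 ± 0.07 with saline (SD, n = 3 each), a difference of -0.13 within the spread (exact two-sided permutation test, p = 0.5, where 3 against 3 can give no less than 0.10). Without baicalin library 3 the difference was -0.02.

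Mt1 and Mt2 together stood higher against Mt3 with baicalin. The ratio of their summed counts to the count of Mt3 was 1.33, 1.43 and 1.30 in the baicalin libraries and 1.14, 1.26 and 1.26 in the saline libraries. The groups did not overlap. The difference in mean log2 ratio was 0.15, with p = 0.1 in the exact two-sided permutation test, the smallest value that it can give. Library size cancels in this ratio.

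Of the genes around the cluster, the one with the highest log2 change overlaps Mt2. The table lists 31 other genes within 500 kb of the cluster, of which 17 passed the expression filter. Gm45774, a gene on the reverse strand (94170748 to 94173412), overlaps Mt2 by 749 bp. It had 15.75, 16.96 and 18.04 CPM with baicalin and 11.67, 12.67 and 12.62 CPM with saline, and its log2 change was 0.46 ± 0.09 (SE, adjusted p = 0.265 in edgeR). Its count was 10.8 to 12.9% of that of Mt2, and since strand use in counting was not given in the sources used here, reads of this pair cannot be told apart.

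The other 16 neighbours had a median log2 change of -0.04, with a range of -0.27 to 0.09. The adjusted threshold in edgeR was passed by 0 of them, and 1 had an unadjusted p under 0.05 (Gnao1, which encodes the alpha subunit of the G protein Go, at -0.20, named after its value was seen). Nearest to the cluster were Nup93, a nuclear pore gene, at 0.08 ± 0.13 (SE) and the pseudogene Rpl10-ps5 at 0.03 ± 0.06. On the other side lay Bbs2, of the BBSome complex of cilia, at -0.04 ± 0.07 and Ogfod1, a prolyl hydroxylase gene, at -0.08 ± 0.04. Next to these Nudt21, which encodes a subunit of mRNA cleavage factor I, was at -0.05 ± 0.06.

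**Figure D5:**
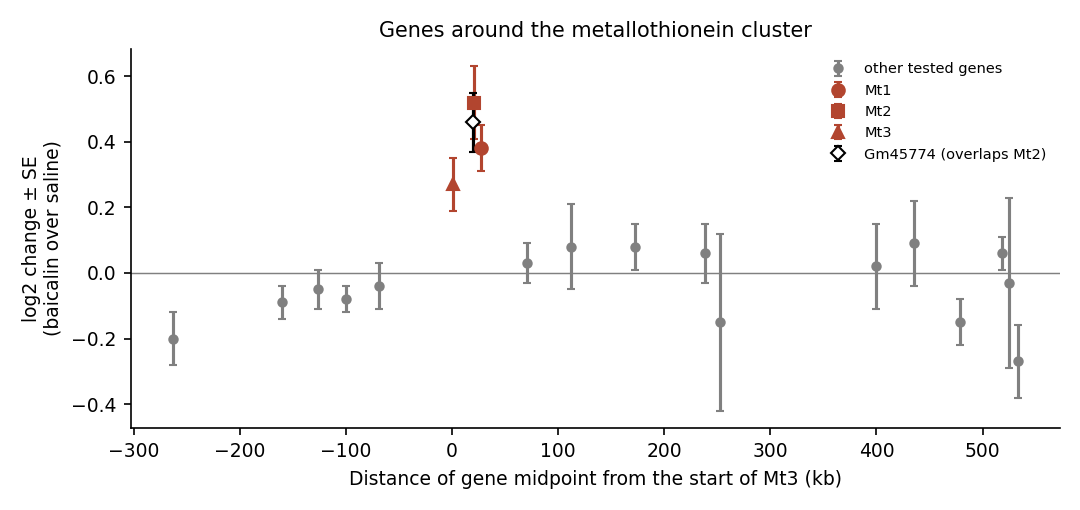
log2 change, baicalin over saline, with its SE for the tested genes around the cluster, by distance of the gene's midpoint from the start of Mt3 in kilobases. The members (0.27 to 0.52) and Gm45774 (0.46) lie above the other 16 genes (-0.27 to 0.09).

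Across the 6 libraries the members' log2 CPM followed each other, with Pearson's r of 0.897 for Mt1 and Mt2, 0.868 for Mt1 and Mt3 and 0.929 for Mt2 and Mt3. These are descriptions over 6 libraries that share a contrast, a length class and library composition. Many genes were closer: Mt2 ranked 298th of 13152 in likeness to Mt1, Mt1 ranked 440th in likeness to Mt2, and Mt2 ranked 290th in likeness to Mt3. Leaving out predicted genes, the genes most like Mt1 were Pgm1 (r = 0.988), Anapc10 (0.985), Inpp4a (0.984), Fastk (0.983) and Chmp2a (0.982). Closest to Mt2 were Ufc1 (r = 0.997), Zfp580 (0.996), Rps3a3 (0.991), Gnptg (0.990) and Rps13-ps5 (0.989). Mt3 was matched by Atp5l-ps1 (r = 0.998), Rps13-ps1 (0.998), the ribosomal protein gene Rpl37 (0.997), the cytochrome c oxidase subunit gene Cox7c (0.995) and Atf6b (0.991). The 100 genes most like each member had a median length of 2281 bp for Mt1, 1177 bp for Mt2 and 1058 bp for Mt3, against 4097 bp for all genes tested.

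Transporters that carry the same metals were next described. As background to the counts of each list, 6.34% of all genes tested were higher and 5.46% lower at an unadjusted p under 0.05. Of all 13153 genes, 6555 had log2 changes above 0. Of 9 zinc exporters of the Slc30 family tested, 0 passed in either direction in edgeR and 0 had an unadjusted p under 0.05. Their median log2 change was -0.03, against -0.001 for all genes tested, and turned positive with the length trend removed (0.03). Slc30a1, the plasma membrane zinc exporter and a target of MTF1, was at 0.09 ± 0.08 (SE), and Slc30a3, which loads zinc into synaptic vesicles, at 0.08 ± 0.07. The smallest unadjusted p-values of this family belonged to Slc30a10 (-0.18 ± 0.08), Slc30a6 (0.22 ± 0.11) and Slc30a4 (-0.09 ± 0.06).

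Of 11 zinc importers of the Slc39 family tested, 0 passed in edgeR and 1 was lower at an unadjusted p under 0.05. That gene was Slc39a10, which MTF1 represses, with 125.2 ± 6.02 CPM in the baicalin group and 141.1 ± 7.37 CPM in the saline group (SD, n = 3 each; log2 change -0.17 ± 0.06, adjusted p = 0.373 in edgeR). Slc39a7 was at -0.18 ± 0.08 (SE) and Slc39a11 at 0.15 ± 0.10, and the median of the importers was -0.08.

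Copper genes had a median log2 change of 0.14 over the 9 tested, with 7 above 0. None of the 9 passed in edgeR, and 2 were higher at an unadjusted p under 0.05 (6.34% of all genes tested were). Those were Sod1, the copper and zinc superoxide dismutase, at 0.18 ± 0.05 (SE), and Atox1, a copper chaperone, at 0.26 ± 0.10. Ccs, the copper chaperone for that enzyme, was at 0.15 ± 0.09. The median was 0.06 with TPM scaling.

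Of 16 genes of thiol redox and glutathione metabolism, 0 passed in edgeR, and 1 was higher and 1 lower at an unadjusted p under 0.05. Thioredoxin, Txn1, was at 0.17 ± 0.06 (SE) and the cystine transporter gene Slc7a11 at -0.73 ± 0.27 (-0.36 without saline library 3, which had 42.7 CPM against 24.6 and 20.9 CPM in the other saline libraries), while the glutathione peroxidase gene Gpx4 was at 0.11 ± 0.04. The list's median was 0.08, and about 0 with TPM scaling.

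Of 11 factors known to regulate Mt1 and Mt2, 4 had log2 changes above 0 and 0 passed in edgeR, with 1 higher and 1 lower at an unadjusted p under 0.05 and a median of -0.04. Mtf1 itself had 35.2, 30.1 and 30.7 CPM with baicalin and 35.3, 31.8 and 32.6 CPM with saline, with overlapping groups and a log2 change of -0.05 ± 0.08 (SE). The lower gene was Nr3c1, the glucocorticoid receptor, with 55.2 ± 5.30 CPM in the baicalin group and 75.7 ± 2.86 CPM in the saline group (SD, n = 3 each; adjusted p = 0.227 in edgeR). The higher gene was Usf2, which encodes a factor that binds E-box motifs, at 0.14 ± 0.06 (SE), and Sp3 was at -0.09 ± 0.11.

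The 7 tested targets of MTF1 other than metallothioneins included 0 past the threshold in edgeR and 1, Slc39a10, that was lower at an unadjusted p under 0.05. Their median was -0.02, and it pools Slc39a10, which MTF1 represses, with the other targets. Pgf, a growth factor gene of low level here, was at 0.53 ± 0.25 (SE).

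Of 12 listed genes of the IL-6 and STAT3 response, 7 were tested, while Il6ra, Osmr, Socs3, Lcn2 and Timp1 fell below the expression filter. Of the 7 tested, 0 passed in edgeR and 0 had an unadjusted p under 0.05, with a median of -0.06. The kinase gene Jak2 was at -0.11 ± 0.06 (SE), Serpina3n at -0.08 ± 0.09 and the receptor subunit gene Il6st at -0.19 ± 0.22. Gfap, an astrocyte filament gene that rises in reactive astrocytes, had 388.1 ± 4.16 CPM with baicalin, against 383.8 ± 41.2 CPM with saline (SD, n = 3 each), a log2 change of 0.02 that was -0.06 with TPM scaling.

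Of the described lists, that of other glucocorticoid-induced genes had the most members higher. Among its 16 genes 13 had log2 changes above 0 and 7 were higher at an unadjusted p under 0.05, with 0 past the adjusted threshold in edgeR and a median of 0.26. Of all 13153 genes tested, 6555 had log2 changes above 0 and 6.34% were higher at an unadjusted p under 0.05. The glucocorticoid list was drawn up with earlier results of these libraries known and is no independent evidence of direction. Plin4, a lipid droplet gene, averaged 30.2 ± 11.8 CPM with baicalin, against 8.40 ± 1.68 CPM with saline (SD, n = 3 each). Its groups did not overlap (log2 change 1.85 ± 0.31, SE, adjusted p = 0.213 in edgeR). Muscle markers were not among the lists described here. Tnnc2, a skeletal muscle gene named after its value was seen, was at 3.156 ± 0.734 (SE). The part of carried-over tissue in these values was not tested. Zbtb16, a zinc finger repressor gene, was at 65.7 ± 4.39 CPM with baicalin and 46.2 ± 2.05 CPM with saline (adjusted p = 0.148 in edgeR). The sulfotransferase gene Sult1a1 was at 19.0 ± 1.01 CPM with baicalin and 13.1 ± 2.18 CPM with saline (adjusted p = 0.322 in edgeR).

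Markers of astrocytes, the cells in which Mt1 and Mt2 are chiefly found, summed to 585.5 to 614.6 FPKM in the baicalin libraries and 572.7 to 603.1 FPKM in the saline libraries. Of these 12 markers 3 were higher at an unadjusted p under 0.05, against 6.34% of all genes tested. The median log2 change of the markers was 0.01 (-0.07 with TPM scaling), and the most abundant, Aldoc and Slc1a2, were at 0.11 and -0.05. Dentate granule cell markers, of neurons whose mossy fibres are rich in zinc, summed to 77.8 to 80.5 FPKM with baicalin and 50.6 to 81.0 FPKM with saline. Their median was 0.25, with C1ql2 at 0.27 and Stxbp6 at 0.25. These values rested on saline library 2: C1ql2 had 58.3, 62.6 and 65.5 CPM with baicalin and 58.8, 33.4 and 62.6 CPM with saline. Without that library the median was 0.07, C1ql2 was at 0.03 and Stxbp6 at 0.11. CA2 and CA3 markers had a median of 0.02 (Pcp4 0.40, Rgs14 -0.18).

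CA1 markers summed to 132.9 to 155.4 FPKM with baicalin and 162.2 to 169.0 FPKM with saline, without overlap. Of the 6 tested, 1 had a log2 change above 0 and 3 were lower at an unadjusted p under 0.05, against 5.46% of all genes tested. Of these CA1 markers 0 were past the adjusted threshold in edgeR, and their median was -0.31 (-0.18 without saline library 2). Nov was at -0.24 (-0.15 without saline library 2). The marker above 0 was Mpped1, at 0.22, which had 89.3 CPM in saline library 2 against 209.5 and 203.3 CPM in the other saline libraries and was at -0.08 without it.

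Interneuron markers had a median of 0.06 (Sst -0.07, Npy 0.13), microglial markers of -0.01 (C1qa -0.01, C1qb 0.16) and oligodendrocyte markers of 0.09 (Mobp 0.10). At an unadjusted p under 0.05, 2 of 8 interneuron markers were higher, against 6.34% of all genes tested. At that level 1 of 7 oligodendrocyte markers was lower, against 5.46% of all genes tested. Endothelial markers summed to 54.2 to 66.0 FPKM with baicalin and 51.3 to 55.5 FPKM with saline, with 3 of 7 above 0 and a median of -0.01 (-0.12 to 0.30 over the alternatives). The most abundant of them were Slc2a1, at 0.42, and Ly6c1, at 0.31. Of the 7, 2 were higher at an unadjusted p under 0.05, against 6.34% of all genes tested. Ependymal markers summed to 15.0 to 28.1 FPKM with baicalin and 18.3 to 22.0 FPKM with saline (median 0.04, with Rarres2 0.03 and Rsph1 0.04). Of the choroid plexus markers 2 of 7 were tested, Ttr at 0.88 (-0.03 without baicalin library 2) and Kl at 0.02, and the list summed to 19.8 to 65.2 FPKM with baicalin and 11.2 to 39.1 FPKM with saline. Meningeal fibroblast markers summed to 89.9 to 142.4 FPKM with baicalin and 73.5 to 545.9 FPKM with saline (median -0.46, with Ptgds -1.16 and Igf2 0.05). Saline library 3 had 998.7 CPM of Ptgds, against 142 and 124.7 CPM in the other saline libraries. Without saline library 3 the median was 0.50 and Ptgds was at 0.50. Blood genes summed to 248.2 to 464.3 FPKM with baicalin and 204.5 to 477.2 FPKM with saline (median 0.01, with Hba-a2 0.25 and Hbb-bs -0.19). With TPM scaling the medians of CA2 and CA3, interneuron, ependymal and blood markers were below 0 (-0.05, -0.01, -0.03 and -0.08). No marker was at 0 in every library, and the part of cell composition in the members' levels was not tested.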

How the data were processed

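Per the labels' protocols, total RNA was depleted of ribosomal RNA, fragmented and reverse transcribed with random primers. The deposited table gives whole-number read counts per gene and FPKM; the authors' FPKM divide counts by merged exon length (within 2% of the GENCODE release 21 value for 96.9% of 12233 genes with at least 200 counts per library). The submitters' processing notes name bcl2fastq 2.0, HISAT2, StringTie, DESeq2, limma and mm10; their roles, the annotation and strand use were not given in the sources used here. Another 12 columns of per-sample values match no label and were not used.

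Counts of the 13153 genes averaging 1 FPKM or more were scaled by TMM and tested with edgeR 4.0.16 (quasi-likelihood, R 4.3.3), baicalin over saline, with p-values adjusted by Benjamini-Hochberg over all of them. The standard error is the log2 change over the square root of F. Alternatives used DESeq2 1.42.0, whose adjusted p was NA for 776 genes, and limma 3.58.1. The fit was tested on simulated counts. Mt1, Mt2 and Mt3 and the gene lists were chosen with earlier results of these data known. Named were the members, the 5 genes most like each, 6 neighbours, 5 genes always named, of each list those past the threshold or otherwise the 3 smallest p-values, and the 2 most abundant markers of each cell type, of which 1 is not reported here. Sequences are from GENCODE release 21 transcripts and RefSeq promoters (GRCm38.p6).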

Additional observations from a re-analysis of the deposited data

How the results depend on the processing

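The log2 changes of Mt1, Mt2 and Mt3 were above 0 in all 18 alternatives, with ranges of 0.28 to 0.43, 0.33 to 0.62 and 0.15 to 0.33, each lowest with the length trend removed. Leaving out 1 library gave 0.32 to 0.43, 0.39 to 0.62 and 0.19 to 0.33, with no member past the threshold in edgeR. DESeq2 alone called Mt1 (0.38) and Mt2 (0.52). It called 218 genes in all, against 6 in edgeR, and leaving out 1 library gave 2 (without baicalin library 3) to 39 (without baicalin library 1), with 10 and 14 without saline library 2 and 3. Libraries of the same number were not shown to be paired: their deviations correlated at 0.13, 0.09 and 0.02, and not every library correlated best with its own number. With a replicate block edgeR called 0 genes (1120 at an unadjusted p under 0.05), and the members stood at 0.37, 0.51 and 0.27. The ratio of Mt1 to Mt2 differed by -0.02 to -0.19, and that of Mt1 plus Mt2 to Mt3 by 0.10 to 0.18.

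Among genes named with a test, values that changed sign were those of Gfap (-0.06 with TPM scaling, -0.03 and -0.02 without saline library 1 and 2, 0.11 at most without 1 library), Serpina3n (0.01 without baicalin library 2, -0.14 at the lowest without 1 library), Nup93 (-0.00 and -0.03 without library 1 of baicalin and of saline, 0.17 at most without 1 library) and Rpl10-ps5 (-0.05 with TPM scaling, -0.14 with the length trend removed), and 30 values of marker genes named without a test also did. Medians of lists crossed 0 too: over the alternatives that of zinc exporters ran from -0.10 to 0.03, MTF1 targets from -0.09 to 0.03, astrocyte markers from -0.07 to 0.03, CA2 and CA3 from -0.09 to 0.09, interneuron from -0.01 to 0.07, microglial from -0.09 to 0.09, oligodendrocyte from -0.05 to 0.14, endothelial from -0.12 to 0.30, ependymal from -0.21 to 0.17, meningeal from -1.17 to 0.50 and blood from -0.26 to 0.36. The cause was not tested. With 3 libraries a group, precision for the members is limited more by the spread between libraries than by counting, least so for Mt2 with saline.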
